A study of Mus musculus with 8 samples.

Results

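Polycomb repressive complex 2 (PRC2) is the chromatin complex that methylates lysine 27 of histone H3. The RNA of 10 genes that encode its core and accessory subunits, chosen by name out of the 24421 genes in the count tables, was measured in mouse embryonic stem (ES) cells of a CAST/Ei x 129/Sv/Jae hybrid line that either carried the HNRNPK 6A mutation or were wild type (WT). All 10 genes passed the filter on low counts. The 4 groups of 2 libraries each were 6A day 14, WT day 14, 6A day 0 and WT day 0. Day 0 cells of both genotypes had grown on irradiated mouse embryonic fibroblast feeders in medium with leukemia inhibitory factor (LIF), and the feeders were removed before harvest. Day 14 cells of both genotypes were switched to medium without LIF, formed embryoid bodies during 4 days of suspension culture, attached to gelatin from day 5 and differentiated further. The design sentence of the series names day 7 in place of day 14, whereas the labels of every sample name day 14, which is used here. What the 6A mutation substitutes, and whether each genotype was a single clone, is not stated by the labels.

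The catalytic subunit of PRC2 is EZH2 or its paralog EZH1, and it works only together with EED, which reads trimethylated lysine 27 and stimulates the enzyme, and SUZ12, the scaffold that holds the complex together. Accessory subunits compete for SUZ12 and divide the complex into 2 forms. PRC2.1 contains a Polycomb-like protein (MTF2, PHF1 or PHF19) and can contain EPOP, whereas PRC2.2 contains JARID2 and AEBP2. In ES cells PRC2 marks the silent promoters of developmental regulators, and HNRNPK is an RNA-binding protein that links the Xist RNA of the inactive X chromosome to Polycomb complexes. EPOP appears in the tables under its older symbol E130012A19Rik and is called Epop from here on.

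E2F transcription factors drive genes of DNA replication, and EZH2 and EED are known E2F targets in human cells, so the RefSeq promoter windows of the members, 250 bases before to 50 bases after the start of the gene on build GRCm38.p6, were searched for E2F motifs. The windows covered 9 of the 10 members. The letters searched were TTTCCCGC, TTTGGCGC, TTTCGCGC and TTTGCCGC on both strands. A match was present in the window of 3 members, Ezh2, Suz12 and Phf19, with 1 match each and therefore no overlapping matches. No match was found in any window of Eed, Ezh1, Jarid2, Aebp2, Mtf2 or Phf1. Of 32851 mouse promoter windows of the same length, 744 held a match (2.26%). The members are counted per gene, and Mtf2, Aebp2 and Jarid2 have more than 1 window, whereas the share is per window. The windows with a match held 31 CpG (Ezh2), 41 (Suz12) and 38 (Phf19), against a median of 7 over all windows. The count and the share are therefore not like for like. The 3 windows with a match are shown with the motif in capitals, and the window of Ezh1 is shown beside them because Ezh1 is the paralog of Ezh2. The windows lie at chr6:47594981-47595280 on the minus strand for Ezh2, chr11:79992856-79993155 on the plus strand for Suz12, chr2:34913927-34914226 on the minus strand for Phf19 and chr11:101226414-101226713 on the minus strand for Ezh1.
Ezh2: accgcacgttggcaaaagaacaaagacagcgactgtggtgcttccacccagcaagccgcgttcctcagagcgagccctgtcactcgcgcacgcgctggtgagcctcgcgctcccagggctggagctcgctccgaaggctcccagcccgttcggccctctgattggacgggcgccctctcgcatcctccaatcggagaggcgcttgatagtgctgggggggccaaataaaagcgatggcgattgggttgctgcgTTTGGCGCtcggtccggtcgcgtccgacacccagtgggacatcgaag
Suz12: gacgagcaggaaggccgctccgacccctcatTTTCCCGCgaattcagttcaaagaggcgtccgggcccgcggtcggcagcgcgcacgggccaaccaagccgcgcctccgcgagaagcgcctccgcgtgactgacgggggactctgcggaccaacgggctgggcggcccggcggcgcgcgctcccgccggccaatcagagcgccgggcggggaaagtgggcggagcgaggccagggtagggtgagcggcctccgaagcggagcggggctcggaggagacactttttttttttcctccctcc
Phf19: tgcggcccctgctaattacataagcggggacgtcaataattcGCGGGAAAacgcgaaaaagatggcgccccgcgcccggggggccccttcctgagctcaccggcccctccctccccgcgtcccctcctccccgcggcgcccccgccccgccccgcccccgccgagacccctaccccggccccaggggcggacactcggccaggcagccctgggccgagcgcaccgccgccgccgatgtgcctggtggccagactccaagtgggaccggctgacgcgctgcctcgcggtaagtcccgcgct
Ezh1: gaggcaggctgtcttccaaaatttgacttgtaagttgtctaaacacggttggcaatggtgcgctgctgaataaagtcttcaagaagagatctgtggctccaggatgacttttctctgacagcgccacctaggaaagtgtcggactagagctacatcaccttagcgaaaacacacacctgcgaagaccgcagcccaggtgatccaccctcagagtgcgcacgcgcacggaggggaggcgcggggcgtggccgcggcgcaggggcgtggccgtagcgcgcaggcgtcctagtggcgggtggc
The match lies 3 bases after the RefSeq start that set the window in Ezh2, 219 bases before it in Suz12 and 208 bases before it in Phf19. For Ezh2 and Phf19 this RefSeq start lies inside the gene coordinates given below, which come from GENCODE. A match of letters is a description and does not show that a factor binds there.

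Libraries held 8146684 to 15540163 counts, and each member was covered by between 97 counts (Phf1 in WT day 0 replicate 1) and 15556 counts (Epop in WT day 0 replicate 2). Levels are given as CPM, which is the count scaled to the library total after TMM adjustment. Hnrnpk itself was at 348 and 385 CPM in the 6A day 14 libraries, against 495 and 474 CPM in the WT day 14 libraries, and at 527 and 538 CPM in the 6A day 0 libraries, against 880 and 709 CPM in the WT day 0 libraries. The 6A libraries were below the WT libraries at both times, and a substitution in the protein cannot be checked from gene counts. All 8 ES cell markers examined (Pou5f1, Nanog, Sox2, Zfp42, Esrrb, Tdgf1, Dppa5a and Tfcp2l1) had counts in every group and fell in both genotypes during differentiation. Their summed level at day 14 was 12.2% of the day 0 level in 6A and 8.98% in WT. At day 0, Y-linked genes had a summed level of 43.4 and 46.9 CPM in 6A, against 28.3 and 28.2 CPM in WT. At day 14 the sum was at or near 0, and Zfy1 and Zfy2 were at 0 in every library. The Y-linked RNA was taken as a sign of male feeders, an assumption that was not tested. In these bulk samples, fewer cells of a type and less RNA per cell cannot be told apart.

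Differentiation was accompanied by lower RNA of most PRC2 subunits in both genotypes, and the members did not move together. In 6A cells, 6 of the 10 members fell between day 0 and day 14, 1 rose and 3 did not pass the test (edgeR quasi-likelihood test with Benjamini-Hochberg adjustment over all 15458 genes tested, adjusted p under 0.05). In WT cells, 7 fell, 2 rose and 1 did not pass. The falls common to both genotypes were those of Ezh2, Eed, Suz12, Jarid2, Mtf2 and Epop, and the rise common to both was that of Phf1. Such changes were frequent across the transcriptome, since 71.9% of all genes tested changed in 6A (35.4% higher and 36.6% lower) and 75.2% in WT (38.4% higher and 36.8% lower). The median log2 fold change of the 10 members was -0.91 in 6A and -0.91 in WT, against -0.03 and 0.04 for all genes tested. Libraries of the 2 days did not overlap for 9 members in 6A and for 10 in WT, which held for 86.9% and 86.3% of all genes.

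**Figure D1:**
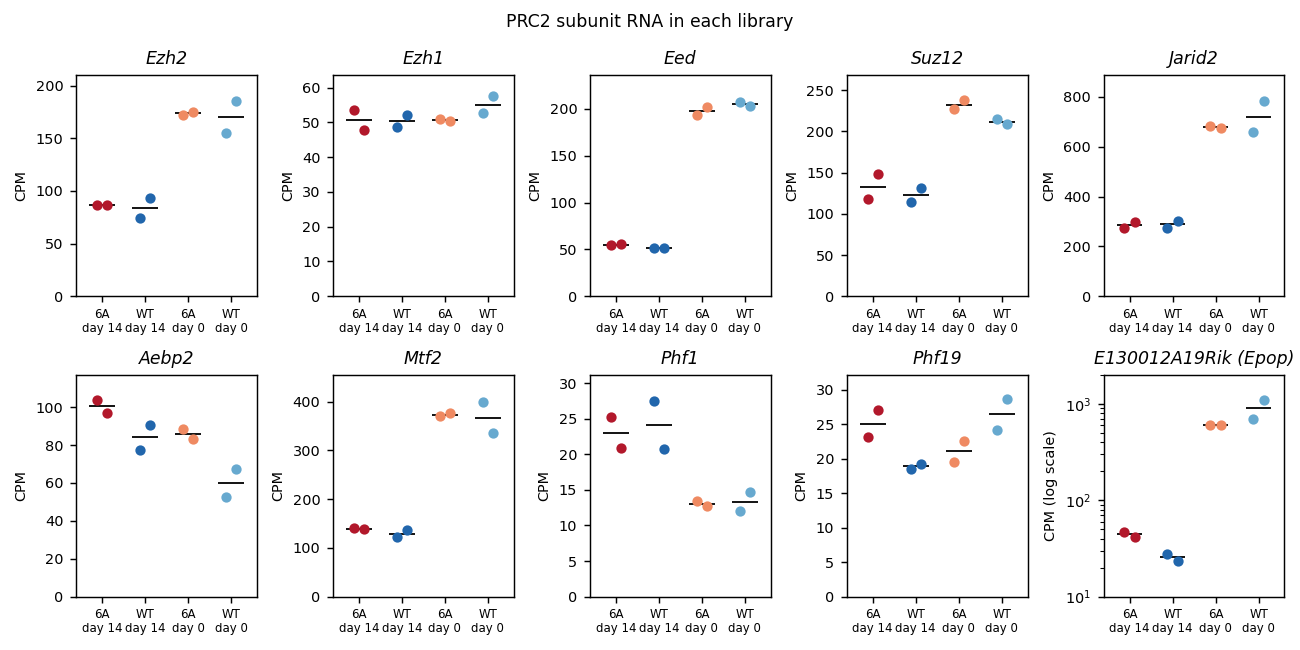
Level of each PRC2 subunit RNA in CPM (vertical axes, a log scale for Epop) in the 2 libraries of each group, with a black line at the group mean. Ezh2, Eed, Suz12, Jarid2, Mtf2 and Epop are lower in all 4 day 14 libraries than in all 4 day 0 libraries, Phf1 is higher, and Ezh1 stays between 47.9 and 57.5 CPM.

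Among the catalytic subunits, Ezh2 fell and Ezh1 did not pass the test. Ezh2 (mm10 chr6:47530139-47595341, minus strand) is the methyltransferase that predominates in dividing cells. It was at 86.6 and 86.4 CPM in 6A day 14 libraries, against 172 and 175 CPM in 6A day 0 libraries. It was at 73.8 and 93.5 CPM in WT day 14 libraries, against 155 and 186 CPM in WT day 0 libraries. Every day 14 library was below every day 0 library, with a gap wider than the spread within any group. The log2 fold change was -1.01 ± 0.13 in 6A (SE, edgeR adjusted p = 1.3e-05) and -1.02 ± 0.13 in WT (adjusted p = 9.6e-06), so the mean was 2.01-fold and 2.03-fold lower at day 14.

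Ezh1 (chr11:101191115-101226463, minus strand), which has weaker methyltransferase activity and predominates in cells that have stopped dividing, was at 53.7 and 47.9 CPM in 6A day 14 libraries, against 50.9 and 50.5 CPM in 6A day 0 libraries. It was at 48.8 and 52.0 CPM in WT day 14 libraries, against 52.7 and 57.5 CPM in WT day 0 libraries. The 6A libraries of the 2 days overlapped, and the WT day 14 libraries were just below those of day 0. The log2 fold change was 0.0033 ± 0.12 in 6A (edgeR adjusted p = 0.98) and -0.13 ± 0.13 in WT (adjusted p = 0.36).

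The ratio of Ezh1 to Ezh2, each per kilobase of exon, was also taken within each library. It was 0.556 and 0.497 in 6A day 14 libraries, against 0.265 and 0.259 in 6A day 0 libraries. It was 0.593 and 0.499 in WT day 14 libraries, against 0.305 and 0.278 in WT day 0 libraries. Ezh2 exceeded Ezh1 in all 8 libraries, and the ratio was higher in every day 14 library than in every day 0 library. The mean log2 ratio was -0.90 ± 0.12 at day 14 and -1.86 ± 0.11 at day 0 (SD, n = 4 libraries each, genotypes pooled), a difference of 0.95 or 1.94-fold, with p = 0.0286 in a two-sided exact permutation test, the smallest that 4 against 4 allows. This separation follows from the lower Ezh2 and the overlapping or nearby Ezh1 levels already given, so that p adds no support of its own. Within a genotype, an exact test of 2 against 2 cannot go below p = 0.333, so only the values are given there.

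Both core subunits fell. Eed (chr7:89954654-89980983, minus strand) was at 54.7 and 55.3 CPM in 6A day 14 libraries, against 193.5 and 202 CPM in 6A day 0 libraries. It was at 51.2 and 51.0 CPM in WT day 14 libraries, against 207 and 203 CPM in WT day 0 libraries. Replicates lay close together and the days were far apart. The log2 fold change was -1.85 ± 0.11 in 6A (edgeR adjusted p = 4.3e-09) and -2.005 ± 0.11 in WT (adjusted p = 1.7e-09), or 3.6-fold and 4.01-fold lower means. Eed shares 261 exon bases with E230029C05Rik on the opposite strand, and 5.82% of its 50-base windows also occur in other genes.

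Suz12 (chr11:79993106-80034123, plus strand) was at 118 and 148 CPM in 6A day 14 libraries, against 227 and 238 CPM in 6A day 0 libraries. It was at 114 and 131 CPM in WT day 14 libraries, against 214 and 208 CPM in WT day 0 libraries. The day 14 libraries were all lower, with a wider spread in 6A than in WT. Its log2 fold change was -0.81 ± 0.13 in 6A (edgeR adjusted p = 6.4e-05) and -0.79 ± 0.13 in WT (adjusted p = 7.5e-05).

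The PRC2.2 subunits parted, Jarid2 falling in both genotypes and Aebp2 not. Jarid2 (chr13:44729474-44921643, plus strand), a DNA-binding relative of the Jumonji demethylases that lacks their activity and helps recruit PRC2, was at 274 and 299 CPM in 6A day 14 libraries, against 682 and 676 CPM in 6A day 0 libraries. It was at 273 and 303 CPM in WT day 14 libraries, against 657 and 783 CPM in WT day 0 libraries. The groups of the 2 days were widely separated in both genotypes. In 6A the log2 fold change was -1.24 ± 0.12 (edgeR adjusted p = 5.9e-07) and -1.32 ± 0.12 in WT (adjusted p = 2.8e-07).

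Aebp2 (chr6:140622663-140678472, plus strand), a zinc finger protein that stabilises the complex, was at 103.9 and 97.0 CPM in 6A day 14 libraries, against 88.8 and 83.2 CPM in 6A day 0 libraries. It was at 77.7 and 90.4 CPM in WT day 14 libraries, against 52.6 and 67.4 CPM in WT day 0 libraries. The day 14 libraries were the higher ones in both genotypes, without overlap. Aebp2 rose in WT (log2 fold change 0.48 ± 0.14, edgeR adjusted p = 0.0060), whereas the value in 6A was 0.23 ± 0.14 (adjusted p = 0.15). The difference between these changes did not pass the interaction test (-0.26 ± 0.19, adjusted p = 0.53). The call in WT was lost without WT day 0 replicate 1 (adjusted p = 0.055) and without WT day 14 replicate 2 (0.076), and with only the 2 groups fitted the 6A change passed (0.28, adjusted p = 0.022).

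The PRC2.1 subunits moved in different directions. Mtf2 (chr5:108065674-108109004, plus strand), the Polycomb-like protein that binds unmethylated CpG-rich DNA and predominates in ES cells, was at 140.7 and 139 CPM in 6A day 14 libraries, against 370.07 and 378 CPM in 6A day 0 libraries. It was at 122 and 136 CPM in WT day 14 libraries, against 400.07 and 335 CPM in WT day 0 libraries. All day 14 libraries were well below all day 0 libraries. Its log2 fold change was -1.42 ± 0.12 in 6A (edgeR adjusted p = 1.4e-07) and -1.51 ± 0.12 in WT (adjusted p = 6.6e-08). Mtf2 shares 395 exon bases with Tmed5 on the opposite strand.

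Phf1 (chr17:26933052-26937908, plus strand), another Polycomb-like protein, was at 25.3 and 20.9 CPM in 6A day 14 libraries, against 13.4 and 12.8 CPM in 6A day 0 libraries. It was at 27.6 and 20.7 CPM in WT day 14 libraries, against 11.97 and 14.8 CPM in WT day 0 libraries. The day 14 libraries were higher without overlap, with 97 to 262 counts behind each value. Phf1 rose with a log2 fold change of 0.82 ± 0.18 in 6A (edgeR adjusted p = 0.0012) and 0.83 ± 0.19 in WT (adjusted p = 0.0011). It shares 1370 of its 3486 exon bases with Cuta on the opposite strand, and the labels do not say whether the counting used the strand. Cuta had a log2 fold change of the opposite sign, -0.37 ± 0.12 in 6A and -0.69 ± 0.12 in WT.

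Phf19 (chr2:34893757-34914026, minus strand), the third Polycomb-like protein, was at 23.2 and 27.03 CPM in 6A day 14 libraries, against 19.5 and 22.6 CPM in 6A day 0 libraries. It was at 18.5 and 19.2 CPM in WT day 14 libraries, against 24.2 and 28.7 CPM in WT day 0 libraries. The day 14 libraries were the higher ones in 6A and the lower ones in WT. Phf19 fell in WT (log2 fold change -0.49 ± 0.16, edgeR adjusted p = 0.011), and the value in 6A was 0.25 ± 0.15 (adjusted p = 0.16). The difference between the 2 changes was 0.74 ± 0.22 and did not pass the interaction test in the main fit (adjusted p = 0.074), but did with a replicate block, a term for the replicate number. It passed without a filter on low counts (adjusted p = 0.029) and without WT day 0 replicate 1 (0.040). The fall in WT was lost without WT day 14 replicate 1 (adjusted p = 0.079) and without WT day 0 replicate 2 (0.088).

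Epop (chr11:97627389-97629702, minus strand, a single exon of 2314 bases), which bridges PRC2.1 to the Elongin B and C proteins, fell furthest of the 10 members. It was at 46.9 and 41.6 CPM in 6A day 14 libraries, against 608 and 598 CPM in 6A day 0 libraries. It was at 27.7 and 23.5 CPM in WT day 14 libraries, against 694 and 1098 CPM in WT day 0 libraries. The WT day 0 libraries differed from each other more than in any other group, and both were above the 6A day 0 libraries. The log2 fold change was -3.77 ± 0.20 in 6A (edgeR adjusted p = 1.3e-08) and -5.14 ± 0.22 in WT (adjusted p = 1.5e-09), or 13.6-fold and 35.01-fold lower means. Only 216 of the 15458 genes tested had a lower log2 fold change in 6A, and 68 in WT. The summed level of the 8 ES cell markers was lower at day 14 in the same direction, 583 and 617 CPM in 6A day 14 libraries against 4925 and 4919 CPM in 6A day 0 libraries, and their part in the fall of the subunits was not tested.

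**Figure D2:**
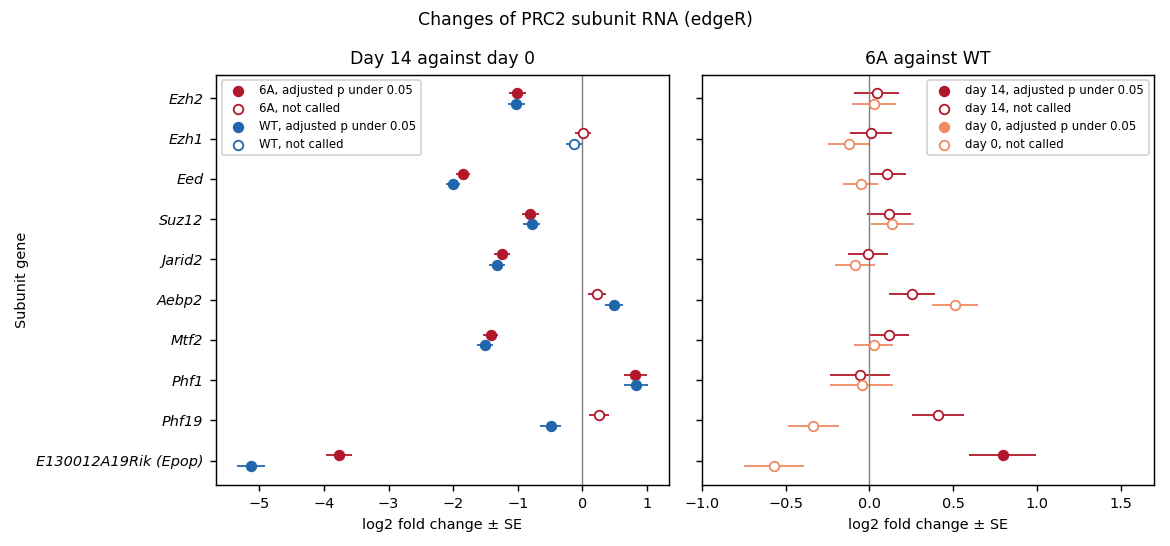
Log2 fold change ± SE of each PRC2 subunit RNA (horizontal axes) for day 14 against day 0 in 6A and WT cells (left) and for 6A against WT cells at day 14 and day 0 (right), with filled points where the edgeR adjusted p is under 0.05. The changes over time reach -5.14 for Epop in WT, whereas of the 20 genotype differences only that of Epop at day 14 is filled.

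Between genotypes, Epop was the member that differed. At day 14, 1 of the 10 members was called, higher in 6A than in WT, against 13.6% of all genes called. Epop averaged 44.3 ± 3.77 CPM in 6A day 14 libraries and 25.6 ± 2.98 CPM in WT day 14 libraries (SD, n = 2 each), a 1.73-fold difference in which both 6A libraries exceeded both WT libraries (log2 fold change 0.80 ± 0.20, edgeR adjusted p = 0.021). The call was lost without each of the 4 day 14 libraries, with adjusted p from 0.054 to 0.18 and log2 fold changes from 0.68 to 0.91.

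Several cell type markers differed between the day 14 groups in the same libraries. The summed ES cell markers were at 583 and 617 CPM in 6A day 14 libraries, against 464 and 442 CPM in WT day 14 libraries, a 1.32-fold difference, and 5 of the 8 (Nanog, Zfp42, Esrrb, Tdgf1 and Tfcp2l1) were called higher in 6A. That count was between 0 and 6 over the alternatives tried. The summed neural markers, 6 of 8 lower, were at 123 and 103 CPM in 6A day 14 libraries, against 271 and 284 CPM in WT day 14 libraries. At day 0 the same sum was higher, at 437 and 426 CPM in 6A libraries and 498 and 479 CPM in WT libraries. From day 0 to day 14 in WT, 5 of the 8 rose and 2 fell, so the sum does not follow neural cells alone. The cardiac markers, 7 of 7 lower, were at 242 and 233 CPM in 6A day 14 libraries, against 1362 and 1540 CPM in WT day 14 libraries. The blood markers, 6 of 7 higher, were at 153 and 159 CPM in 6A day 14 libraries, against 53.9 and 53.2 CPM in WT day 14 libraries. The endoderm markers, 1 of 6 higher, overlapped, at 166 and 170 CPM in 6A day 14 libraries, against 177 and 161 CPM in WT day 14 libraries. The cultures of the 2 genotypes thus differed in the RNA of the ES cell, neural, cardiac and blood markers by more than their replicate spread. The part of this in the Epop difference was not tested.

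The other 9 members did not pass the genotype test at day 14. Phf19 came closest, at 25.1 ± 2.72 CPM in 6A and 18.9 ± 0.473 CPM in WT (log2 fold change 0.41 ± 0.16, edgeR adjusted p = 0.11), followed by Aebp2 (0.26 ± 0.14, adjusted p = 0.26). The remaining 7 had log2 fold changes between -0.06 and 0.12. Libraries of the 2 genotypes did not overlap for 5 members, which held for 56.7% of all genes. The median log2 fold change of the 10 members was 0.11, against 0.00 for all genes tested.

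At day 0, none of the 10 members passed the genotype test with edgeR, and none with DESeq2, while 3 had an unadjusted p under 0.05 (Aebp2, Epop and Phf19). Of all 15458 genes tested with edgeR, 1.58% were called and 2530 had an unadjusted p under 0.05. Aebp2 averaged 86.0 ± 3.94 CPM in 6A day 0 libraries and 60.0 ± 10.5 CPM in WT day 0 libraries (log2 fold change 0.51 ± 0.14, edgeR adjusted p = 0.085). It passed without a filter on low counts (adjusted p = 0.042) and without WT day 0 replicate 2 (0.036). Epop averaged 603 ± 6.93 CPM in 6A day 0 libraries and 896 ± 286 CPM in WT day 0 libraries (-0.57 ± 0.18, adjusted p = 0.14). Without WT day 0 replicate 1 its log2 fold change was -0.87 and passed (adjusted p = 0.0042), whereas without WT day 0 replicate 2 it was -0.20 and did not (adjusted p = 0.45).

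The remaining day 0 differences ran from -0.33 ± 0.15 for Phf19 to 0.14 ± 0.13 for Suz12. Libraries did not overlap for 6 members, which held for 45.6% of all genes, and the median log2 fold change was -0.05, against 0.01 for all genes. The Y-linked genes and the fibroblast markers both had higher sums in the 6A libraries at day 0. The Y-linked sum was 1.60-fold higher, although none of the 4 Y-linked genes tested was called with edgeR or DESeq2 (3 had an unadjusted p under 0.05 with edgeR). The summed fibroblast markers were at 2129 and 1525 CPM in 6A day 0 libraries, against 1497 and 1380 CPM in WT day 0 libraries, with 2 of 9 called higher and between 0 and 5 over the alternatives. The same fibroblast sum was 14423 and 10225 CPM in 6A day 14 libraries and 10883 and 9479 CPM in WT day 14 libraries, where Y-linked RNA was at or near 0. If the Y-linked RNA came from feeders, the fibroblast sum therefore does not measure feeder RNA alone. The part of either sum in the level of any subunit was not tested.

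The interaction test asked whether the 6A difference at day 14 departed from that at day 0. Epop was the 1 member that passed with all libraries, the filter and no replicate block, against 4.74% of all genes. The change of Epop was 1.37 ± 0.27 on the log2 scale (edgeR adjusted p = 0.014). Its fall during differentiation was thus smaller in 6A than in WT by that amount. The call was lost without either WT day 14 library and without 6A day 14 replicate 1 (adjusted p between 0.053 and 0.11), and the value ran from 1.00 to 1.67 over all libraries left out. Among the ES cell markers, Zfp42 and Esrrb passed the same test in the same direction (0.60 ± 0.15 and 0.78 ± 0.18). These calls were lost in 7 and 5 of 13 alternatives. The median interaction of the 10 members was 0.08, against -0.01 for all genes.

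Levels were compared between genes after division by exon length, as CPM per kilobase. The length counts every annotated exon of a gene, so a gene whose transcripts use only some of them is scaled too low. At day 14 Jarid2 stood first, at 29.5 CPM per kilobase in 6A and 29.7 in WT, followed by Suz12 and Mtf2, whose libraries overlapped in both genotypes. Jarid2 was apart from Suz12 in WT and overlapped it in 6A. Epop was the fourth in 6A at 19.1, apart from its neighbours Mtf2 and Eed, and the sixth in WT at 11.1, where its libraries overlapped those of Ezh2. Eed stood at 14.4 in 6A and 13.4 in WT, and Ezh2 at 12.95 in 6A and 12.5 in WT, apart in 6A and overlapping in WT. Aebp2 stood at 10.2 in 6A and 8.53 in WT, where it overlapped Phf1. Ezh1 and Phf1 could not be ordered, since their libraries overlapped in both day 14 groups, and Phf19 was last at 4.98 in 6A and 3.75 in WT.

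The order was different at day 0. In both day 0 groups Epop stood first, at 260.75 CPM per kilobase in 6A and 387 in WT, which was 3.73-fold and 5.23-fold above Jarid2, the next. Before division by length (2314 bases for Epop, 9715 for Jarid2), Epop averaged 603 CPM and Jarid2 679 CPM in 6A day 0 libraries. In WT day 0 libraries the averages were 896 and 720 CPM. The first place in 6A and the size of both folds thus rest on the exon lengths. After Jarid2 came Mtf2, Eed, Suz12 and Ezh2 in both genotypes, between 69.9 and 26.01 CPM per kilobase in 6A, with no overlap between neighbours there, and between 74.1 and 25.5 in WT, where Jarid2 and Mtf2 overlapped. Aebp2, Ezh1, Phf19 and Phf1 lay at the low end, between 3.75 and 8.73 in 6A and between 3.83 and 7.40 in WT. Of these, Aebp2 and Phf19 overlapped in WT and the other neighbours were apart.

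**Figure D3:**
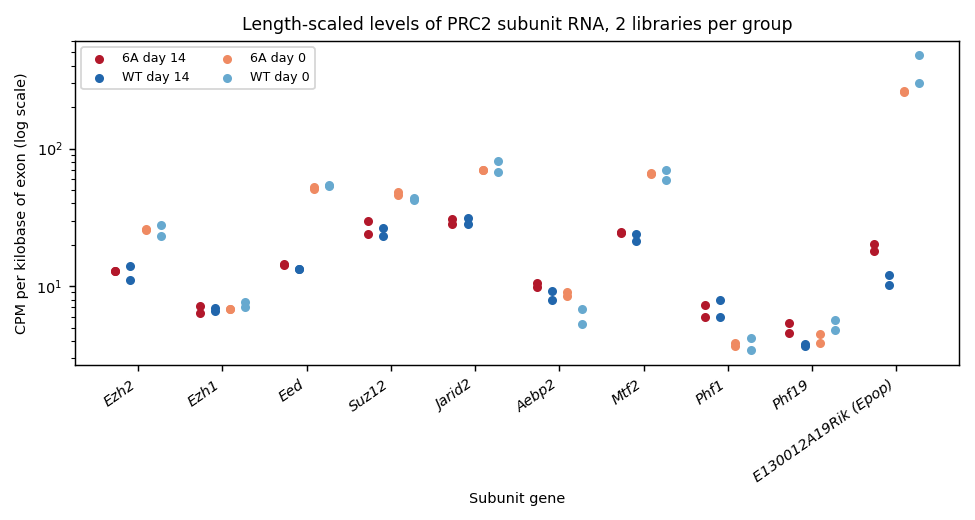
Level of each PRC2 subunit RNA in CPM per kilobase of exon (vertical log axis) in the 2 libraries of each group. The day 14 levels of all subunits lie between 3.68 and 31.2, and Epop is above every other subunit in all 4 day 0 libraries.

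The balance of the PRC2.1 subunits (Mtf2, Phf1, Phf19 and Epop, summed per kilobase) over the PRC2.2 subunits (Jarid2 and Aebp2) was 1.47 and 1.32 in 6A day 14 libraries, against 4.23 and 4.27 in 6A day 0 libraries. It was 1.25 and 1.085 in WT day 14 libraries, against 5.18 and 6.22 in WT day 0 libraries. The day 14 ratios were lower in both genotypes without overlap. Without Epop, the ratio was 0.943 and 0.878 in 6A day 14 libraries, against 0.917 and 0.955 in 6A day 0 libraries. In WT it was 0.916 and 0.833 at day 14, against 1.076 and 0.787 at day 0. Without Epop the ranges of the 2 days overlapped in both genotypes. The size of these ratios depends on the exon lengths used, and RNA ratios do not give the amounts of the complexes.

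**Figure D4:**
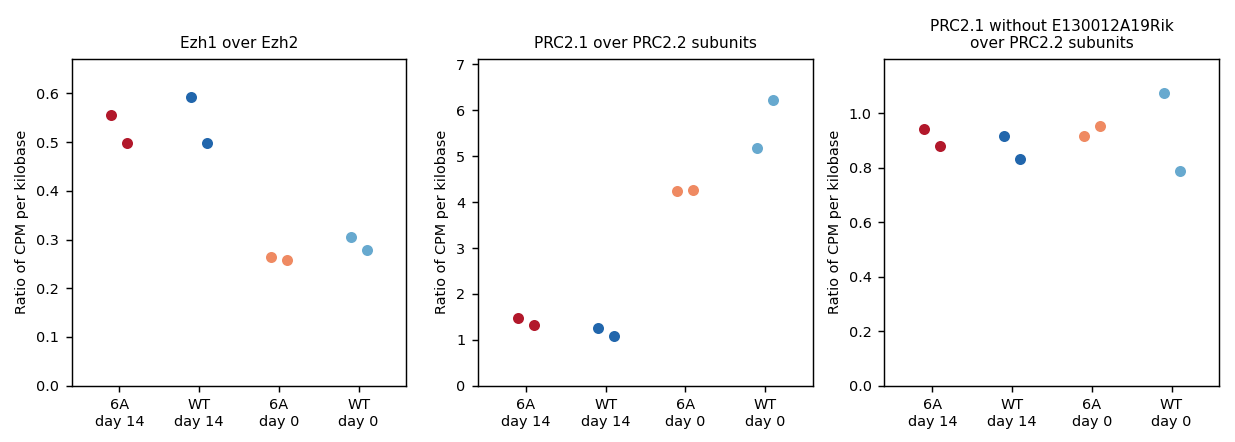
Ratios of CPM per kilobase in each library (vertical axes) for Ezh1 over Ezh2 (left), PRC2.1 over PRC2.2 subunits (middle) and the same without Epop (right), in the 4 groups. The left ratio is higher and the middle ratio lower in all day 14 libraries, whereas the right ratio overlaps between days.

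Reads given to the 129 or the CAST genome by the submitters, 29.1% to 31.6% of the counts of a library, gave a 129 share for each member. Over all 8 libraries, 6 members were read from both alleles, with a 129 share of 57.3% for Ezh1, 49.7% for Eed, 45.7% for Jarid2, 57.2% for Mtf2, 33.0% for Phf19 and 45.4% for Epop. The other 4 had reads given almost only to the 129 genome, with shares of 99.2% for Ezh2 (4974 reads from 129 against 42 from CAST), 94.9% for Suz12, 97.5% for Aebp2 and 97.4% for Phf1. The genes around these 4 had the same allele pattern. Within 2 Mb and with at least 40 allele reads at day 14, over 90% 129 reads were found for 28 of 28 neighbours of Ezh2, 44 of 46 of Suz12, 7 of 7 of Aebp2 and 72 of 77 of Phf1. Of the neighbours of the 6 other members, only 1 of 88 near Ezh1 and 1 of 68 near Epop did so. Across the autosomes, 66.1% of 11910 genes had over 90% 129 reads. Whether the regions of these 4 genes hold a CAST copy that reads can be told from was not tested. The shares of the 4 genes therefore do not show which allele they were expressed from.

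The allele ratio of no member passed a test between genotypes or days (limma, adjusted p under 0.05). For Ezh2, Suz12, Aebp2 and Phf1, which had few CAST reads, the test could not show a shift between alleles. At an unadjusted p under 0.05, Jarid2 passed in 6A (log2 change of the 129 to CAST ratio 0.33 ± 0.15, limma adjusted p = 0.16) and Mtf2 (-0.24 ± 0.10, adjusted p = 0.17) and Epop (-0.42 ± 0.17, adjusted p = 0.13) in WT, each for day 14 against day 0, and no member did between genotypes. Genes called across the tables were 20.2% for day 14 against day 0 in 6A and 17.1% in WT. They were 0.00795% for 6A against WT at day 14 and 0.0875% at day 0. Across the autosomes, 66.1% of genes had over 90% 129 reads. Where CAST reads were few, the test could not show a shift for these genes either. The called shares therefore do not give the share of genes that shifted between alleles. For 6A, Jarid2 was called without either WT day 0 library (adjusted p = 0.032 each), and Phf19 without 6A day 14 replicate 1 (1.11 ± 0.26, adjusted p = 0.026). Phf19 had 28 reads from 129 and 81 from CAST in 6A day 14 replicate 1, and 56 and 64 in 6A day 14 replicate 2, against 25 and 75 in 6A day 0 replicate 1 and 45 and 100 in 6A day 0 replicate 2. The 6A day 14 libraries of Phf19 were thus far apart.

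**Figure D5:**
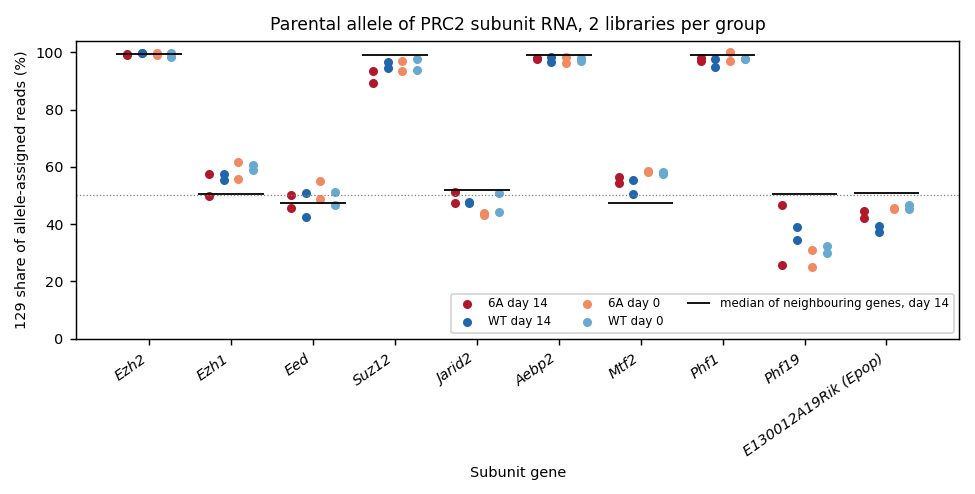
Share of allele-assigned reads from the 129 genome (vertical axis, percent) for each PRC2 subunit in the 2 libraries of each group, with a black line at the median of the neighbouring genes at day 14 and a dotted line at 50. Ezh2, Suz12, Aebp2 and Phf1 sit at 89.4% or above in every library, and the medians of their neighbours at 98.9% or above. The other 6 subunits lie between 25.0% and 61.6%.

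Across the 8 libraries, which share the strong difference between the 2 days, the log2 levels of Ezh2, Eed, Suz12, Jarid2, Mtf2 and Epop followed each other with Pearson r between 0.94 and 0.99. Phf1 ran opposite to all of them (r between -0.98 and -0.91). Ezh1, Aebp2 and Phf19 followed none of them closely, with r of 0.49 for Ezh1 and Ezh2, -0.50 for Aebp2 and Ezh2 and 0.32 for Phf19 and Ezh2. Among 14617 genes compared, those most like Ezh2 were Supt16 (r = 0.998), Lias and Mphosph10. Those most like Eed were Morc1, Cd9 and Dyrk3, those most like Suz12 were Tnpo1, Setdb2 and Vcpkmt, and those most like Epop were Ppm1g, Ftsj3 and Hdgf. High likeness was common, with r over 0.95 for 2068 genes with Ezh2, 2936 with Eed, 1525 with Suz12 and 2654 with Epop. No gene reached it with Ezh1, whose nearest were Tssk6 (r = 0.907), Pmvk and Srek1. These values over 8 libraries are descriptions.

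Further partners of PRC2 were measured beside the members. Of 7 other PRC2 partners, 2 rose and 5 fell in 6A, and 2 rose and 4 fell in WT, with median log2 fold changes of -0.52 and -0.42. The share of all genes that changed was 71.9% in 6A and 75.2% in WT. Rbbp4, a histone chaperone that PRC2 contains unless it holds the paralog RBBP7, was at 338 and 330 CPM in 6A day 14 libraries, against 482.5 and 475 CPM in 6A day 0 libraries, and fell by 0.52 ± 0.11 on the log2 scale (edgeR adjusted p = 0.0010). In WT it fell by 0.77 ± 0.11. Tceb2, which encodes Elongin B, the partner of EPOP, fell by 0.73 ± 0.13 in 6A and 0.79 ± 0.13 in WT. Lcorl, a locus whose transcript can encode a PRC2.1 subunit of the PALI type, was at 48.2 and 49.1 CPM in 6A day 14 libraries, against 11.7 and 9.81 CPM in 6A day 0 libraries, and rose (2.18 ± 0.15 in 6A and 1.88 ± 0.15 in WT). None of the 7 was called between genotypes at either day with edgeR or DESeq2, and at an unadjusted p under 0.05 there were 0 at day 14 and 1 at day 0. The share of all 15458 genes called there with edgeR was 13.6% at day 14 and 1.58% at day 0. Without adjustment, 4081 genes at day 14 and 2530 at day 0 had a p under 0.05.

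The enzymes that remove methyl groups from lysine 27 parted. Kdm6a, the X-linked demethylase UTX, was at 134 and 157 CPM in 6A day 14 libraries, against 262 and 284 CPM in 6A day 0 libraries, and fell by 0.91 ± 0.12 in 6A and 0.78 ± 0.12 in WT. Kdm6b, or JMJD3, was at 92.2 and 49.9 CPM in 6A day 14 libraries, against 28.8 and 15.0 CPM in 6A day 0 libraries. It rose by 1.71 ± 0.41 in 6A (edgeR adjusted p = 0.0095) and 1.51 ± 0.42 in WT (0.016). The WT call was lost without a filter on low counts, without WT day 0 replicate 1 and without WT day 0 replicate 2, with adjusted p up to 0.14. Replicates of Kdm6b were farther apart than those of Kdm6a.

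Polycomb repressive complex 1 (PRC1), which adds ubiquitin to histone H2A and whose CBX subunits bind trimethylated lysine 27, was mixed. Of its 26 subunits measured, 11 rose and 9 fell in 6A, and 12 rose and 8 fell in WT, near the 71.9% and 75.2% of all genes that changed. The median log2 fold change was -0.02 in 6A and 0.27 in WT. The 3 with the smallest adjusted p all fell in both genotypes. Pcgf6, which defines a variant PRC1 of ES cells, fell by 2.26 ± 0.13 in 6A and 2.24 ± 0.13 in WT. L3mbtl2, of the same variant complex, fell by 2.37 ± 0.14 in 6A and 2.91 ± 0.14 in WT. Cbx7, the main CBX subunit of ES cells, was at 40.85 and 44.0 CPM in 6A day 14 libraries and 25.5 and 27.6 CPM in WT day 14 libraries, and at 175 and 172 CPM in 6A day 0 libraries and 188 and 233 CPM in WT day 0 libraries.

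Between genotypes, 2 of the 26 PRC1 subunits were called at day 14, 1 at day 0 and 2 in the interaction test. The shares of all genes called were 13.6%, 1.58% and 4.74%. Cbx7, like Epop, was above its WT level in 6A at day 14 (log2 fold change 0.67 ± 0.14, edgeR adjusted p = 0.0043) and passed the interaction test (0.96 ± 0.18, adjusted p = 0.0085). Both calls were lost without WT day 14 replicate 1 (adjusted p = 0.058 and 0.055). Cbx6 was also higher at day 14, at 201 and 162 CPM in 6A day 14 libraries, against 113.2 and 113 CPM in WT day 14 libraries (0.69 ± 0.14, adjusted p = 0.0050), and its interaction was 0.79 ± 0.20 (adjusted p = 0.040). The day 14 call of Cbx6 was lost without either WT day 14 library and without 6A day 14 replicate 1 (adjusted p up to 0.079), and its interaction call in 6 of 13 alternatives. At day 0, Bmi1 was the 1 PRC1 subunit called, higher in 6A (0.70 ± 0.16, adjusted p = 0.0499), and that call was lost in 11 of 14 alternatives.

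The PR-DUB complex takes the ubiquitin off H2A again. Of its 8 subunits measured, 3 rose and 3 fell in 6A, and 4 rose and 3 fell in WT, where 71.9% and 75.2% of all genes changed. Asxl3 rose by 2.93 ± 0.17 in 6A and 2.51 ± 0.17 in WT, whereas its paralog Asxl1 fell by 1.11 ± 0.12 in 6A and 1.085 ± 0.12 in WT (edgeR adjusted p = 2.2e-06 in both). Mbd5 rose by 0.84 ± 0.17 in 6A and 1.36 ± 0.17 in WT. None of the 8 was called between genotypes at either day with edgeR or DESeq2, and at an unadjusted p under 0.05 there were 0 at day 14 and 1 at day 0. Of all 15458 genes tested with edgeR, 13.6% were called at day 14 and 1.58% at day 0. An unadjusted p under 0.05 was found for 4081 genes at day 14 and 2530 at day 0.

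Genes of E2F and S phase also fell. Of 21, 20 fell in 6A and 20 in WT, with median log2 fold changes of -1.48 and -1.69. Among all genes tested, 36.6% fell in 6A and 36.8% in WT. Over the alternatives tried, 19 or 20 fell in 6A and 20 in WT. Ccne1, the cyclin that starts S phase, was at 59.5 and 54.4 CPM in 6A day 14 libraries, against 306.3 and 306 CPM in 6A day 0 libraries (-2.43 ± 0.12, edgeR adjusted p = 1.0e-09), and its log2 fold change in WT was -3.00 ± 0.13. Mcm5, of the replicative helicase, fell by 1.83 ± 0.11 in 6A and 2.34 ± 0.12 in WT. In the same libraries the log2 fold change in 6A was -1.01 for Ezh2, -1.85 for Eed and -0.81 for Suz12, and the part of the S-phase programme in these falls was not tested. At day 14, 2 of the 21 were higher in 6A than in WT, Tyms (0.65 ± 0.15, adjusted p = 0.0084) and Mcm5 (0.36 ± 0.11, adjusted p = 0.044). The share of all genes called there was 13.6%. The number called higher ran from 0 to 6 over the alternatives.

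Developmental regulators whose promoters PRC2 binds in ES cells are the classical targets of the complex. Of 21, 12 rose and 4 fell in 6A, and 18 rose and 1 fell in WT, with median log2 fold changes of 2.38 and 3.03. Among all genes tested, 35.4% rose in 6A and 38.4% in WT. Gata6, a transcription factor of endoderm and heart, was at 302 and 263 CPM in 6A day 14 libraries, against 0.855 and 0.401 CPM in 6A day 0 libraries (8.85 ± 0.24, edgeR adjusted p = 7.2e-12). Gata4 rose by 5.28 ± 0.16 in 6A and 5.08 ± 0.16 in WT. Wt1, of kidney and mesothelium, rose by 6.72 ± 0.19 in 6A and 5.34 ± 0.19 in WT.

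At day 14, 4 of these 21 were higher and 10 lower in 6A than in WT, and none was called at day 0 with edgeR or DESeq2, where 3 had an unadjusted p under 0.05. The share of all genes called with edgeR was 13.6% at day 14 and 1.58% at day 0. An unadjusted p under 0.05 was reached by 2530 of the 15458 genes at day 0. Pax6, a neural regulator, was at 0.869 and 1.16 CPM in 6A day 14 libraries, against 10.3 and 10.9 CPM in WT day 14 libraries (log2 fold change -3.38 ± 0.28, edgeR adjusted p = 4.1e-06). Neurog2 was at 0.0966 and 0.386 CPM in 6A day 14 libraries, against 7.54 and 8.38 CPM in WT day 14 libraries. Pax3 was at 0 and 0.290 CPM in 6A day 14 libraries, against 6.955 and 8.70 CPM in WT day 14 libraries. The lower genes named here are neural regulators, and 6 of the 8 neural markers, whose sum was higher still at day 0, were lower in the same libraries. Pax6 is itself among these neural markers, so the lists overlap. The part of the neural markers in the lower regulators was not tested.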

How the data were processed

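Directional libraries of ribosome-depleted total RNA were read from both ends over 150 bases, per the labels' protocols. Raw counts per gene were deposited for all reads and for reads given to the CAST and 129 genomes. Cutadapt 1.4.2, STAR 2.7.10a and mm10 are named in the submitters' processing notes. The counting tool, its strand setting, the annotation and the allele method remain not given in the sources used here. From the counts, genes kept by filterByExpr (15458) were fitted with edgeR 4.0.16 under R 4.3.3 (TMM, robust quasi-likelihood, all 8 libraries, 1 coefficient per group, 4 residual degrees of freedom), with Benjamini-Hochberg adjustment over all of them. The common biological coefficient of variation was 0.111. Allele ratios (pseudocount 0.5, mean of at least 10 allele reads per library) were fitted with limma 3.58.1, weighted by read depth. The scripts were tested on simulated data. DESeq2 1.42.0, RLE scaling, no filter, no robust moderation, only the 2 groups, a replicate block and leaving out each library were alternatives. Exon lengths and coordinates come from GENCODE release M21 (GRCm38, the mm10 assembly) and promoter windows from RefSeq. All 10 members are named. Of each gene list, up to 3 called genes with the smallest adjusted p are named, and up to 3 genes by likeness, predicted genes passed over. The members and lists were chosen with earlier results of these data known. With 2 libraries per group, which the protocol calls biological replicates without naming separate cultures, p-values measure only the spread between these samples.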

Additional observations from a re-analysis of the deposited data

Results flagged for a closer look

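The genotype difference of Epop was called different on the 2 days. In the interaction test its 6A difference at day 14 exceeded that at day 0 by 1.37 ± 0.27 on the log2 scale (edgeR adjusted p = 0.014). The call was lost without either WT day 14 library and without 6A day 14 replicate 1 (adjusted p up to 0.11), and the value was 1.00 without WT day 0 replicate 2. Both 6A libraries were above both WT libraries at day 14, and both were below both WT libraries at day 0. The day 0 difference taken alone did not pass (adjusted p = 0.14), and WT day 0 replicate 2 had 1098 CPM where WT day 0 replicate 1 had 694.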

How the results depend on the processing

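Of the 18 calls of members over the 5 contrasts, 14 were kept in every alternative, among them every fall of Ezh2, Eed, Suz12, Jarid2, Mtf2 and Epop and both rises of Phf1. The other 4 (Epop at day 14 and in the interaction, Aebp2 and Phf19 in WT) are described with their libraries above. In the 690 gene-level alternatives, 633 kept direction and call, 11 lost the call, 8 gained it and 38 changed sign, these last all uncalled, at most 0.199 in size and with adjusted p of 0.67 or more. Sign changes outside the libraries left out were those of Jarid2 for 6A against WT at day 14 (0.029 with RLE, 0.034 with DESeq2, 0.048 with no filter), and in the interaction of Suz12 (0.033 with RLE, 0.037 with DESeq2, 0.052 with no filter) and Phf1 (0.040 with RLE, 0.037 with DESeq2, 0.062 with no filter, 0.0025 with the replicate block). The cause was not tested.

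Leaving out libraries gave these log2 ranges for members with a changed sign or call. For 6A against WT at day 0 they were -0.10 to 0.16 for Ezh2, -0.21 to 0.046 for Jarid2, 0.35 to 0.71 for Aebp2, -0.10 to 0.15 for Mtf2, -0.18 to 0.12 for Phf1 and -0.87 to -0.20 for Epop. At day 14 they were -0.071 to 0.095 for Ezh1, -0.12 to 0.23 for Ezh2, -0.051 to 0.28 for Suz12, -0.087 to 0.072 for Jarid2, -0.26 to 0.15 for Phf1 and 0.68 to 0.91 for Epop. For day 14 against day 0 they were -0.083 to 0.082 for Ezh1 in 6A, 0.31 to 0.67 for Aebp2 in WT and -0.62 to -0.36 for Phf19 in WT. In the interaction they were -0.14 to 0.20 for Ezh2, -0.19 to 0.14 for Suz12, -0.051 to 0.21 for Jarid2, -0.034 to 0.22 for Mtf2, -0.21 to 0.20 for Phf1, 0.61 to 0.86 for Phf19 and 1.00 to 1.67 for Epop.

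Counts of members called moved from 0 to 1 at day 0 with no filter (Aebp2) and with the replicate block (Aebp2, adjusted p = 0.048), and were 0 to 1 over libraries left out. In the interaction the count moved from 1 to 2 with no filter and with the replicate block (Phf19 added, adjusted p = 0.029 and 0.036), and was 0 to 2 over libraries left out. At day 14 it was 0 to 1, and for the allele ratio in 6A 0 to 1. The replicate block changed no other call of a member. Same-numbered libraries of different groups had replicate differences that correlated with r from 0.0042 to 0.24, and with only 2 numbers this pairs nothing. Genes called for 6A against WT at day 0 were 244, against 459 with no filter, 466 with the replicate block, 154 with no robust moderation and 23 with only the 2 groups, and 32 to 567 over libraries left out. They were 982 to 2759 over libraries left out at day 14 (2109 with all) and 280 to 835 in the interaction (733 with all). The Ezh1 to Ezh2 ratio difference was 0.90 to 1.00 over libraries left out, where an exact permutation test of 3 against 4 cannot go below p = 0.0571, so that p says nothing about stability. Depth limits precision for Phf1 and Phf19, which rest on 97 to 407 counts per library.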
